A study of Homo sapiens with 9 samples.

Results

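The comparison of ETS1-High with RFP control cells of TC-32 sets 3 libraries of cells that ectopically expressed the transcription factor ETS1 against 3 libraries of cells with the RFP control vector, 6 of the 9 RNA-seq libraries of the series. TC-32 is an established human Ewing sarcoma cell line that carries the EWSR1::FLI1 fusion, and every group keeps that fusion. In ETS1-High the ETS1 cDNA came from the lentiviral vector pLOC, cells were selected with puromycin and sorted as single cells, and the series describes the ETS1 cells as single cell clones whose ETS1 level was comparable to that of cells depleted of EWSR1::FLI1. RFP is the red fluorescent protein control in the same parental line. The other ETS1 group, ETS1-Low (3 libraries), expressed less ETS1 and is used only to show where ETS1-High differs from it. The libraries were chosen by their titles. How many clones stand behind a group, and whether the RFP cells were cloned, is not given in the labels, so an effect of ETS1 and a difference between clones cannot be told apart. Nothing in the labels says that the 3 libraries of a group came from separate cultures, so p-values measure the spread between these samples, which may be technical.

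ETS1 is the founding member of the ETS family of transcription factors, which bind DNA around a GGAA core and act in endothelial, lymphoid and migrating cells. FLI1 is another member of the family. In Ewing sarcoma the fusion of EWSR1 to the DNA-binding part of FLI1 activates genes from repeats of that core and represses many genes of mesenchymal adhesion and matrix. TNS3 encodes tensin 3, a focal adhesion protein that joins integrins to the actin cytoskeleton.

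The totals of expected counts ran from 43930328 to 46256560 in RFP and from 39949333 to 46157105 in ETS1-High. Between 24456 and 24559 genes had a count in the RFP libraries and between 22951 and 23120 in the ETS1-High libraries. Mitochondrial genes took 6.02% to 6.26% of the counts in RFP and 6.64% to 7.29% in ETS1-High. Across 17235 genes tested with edgeR's quasi-likelihood test, 12785 (74.2%) were called, that is, had a Benjamini-Hochberg adjusted p under 0.05. Of all genes tested, 6372 (37.0%) were called higher and 6413 (37.2%) lower in ETS1-High. Most of these changes were small: the median absolute log2 fold change of the called genes was 0.53. The fitted change was at least 2-fold for 1661 called genes (9.64% of those tested) upward and 1965 (11.4%) downward. It was at least 4-fold for 665 and 964. These counts rest on a test against no change. A test against a 2-fold change (edgeR's glmTreat, adjusted p under 0.05) gave 1212 genes higher and 1396 lower. The values of the 3 ETS1-High libraries did not overlap those of the 3 RFP libraries for 13004 genes (75.5%). A list of genes in which about 37% of members rise and 37.2% fall is therefore at the background of all genes tested. That background differed by level. Under 1 CPM 19.1% of genes were called higher and 31% lower, and over 100 CPM 46.6% and 38.1%. The lists below were not matched for level, and its part in their directions was not tested. The deposited FPKM values, which are normalised for length and library total but not by TMM, gave a split of 41.3% higher among the called genes where the TMM-normalised counts gave 49.8%. Folds below are differences in log2 CPM after TMM from the edgeR fit, and levels are FPKM. SE is the absolute log2 fold change divided by the square root of the F statistic of the quasi-likelihood test. It can be too small where a group has only a few counts, as in several of the largest changes by fold.

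**Figure D1:**
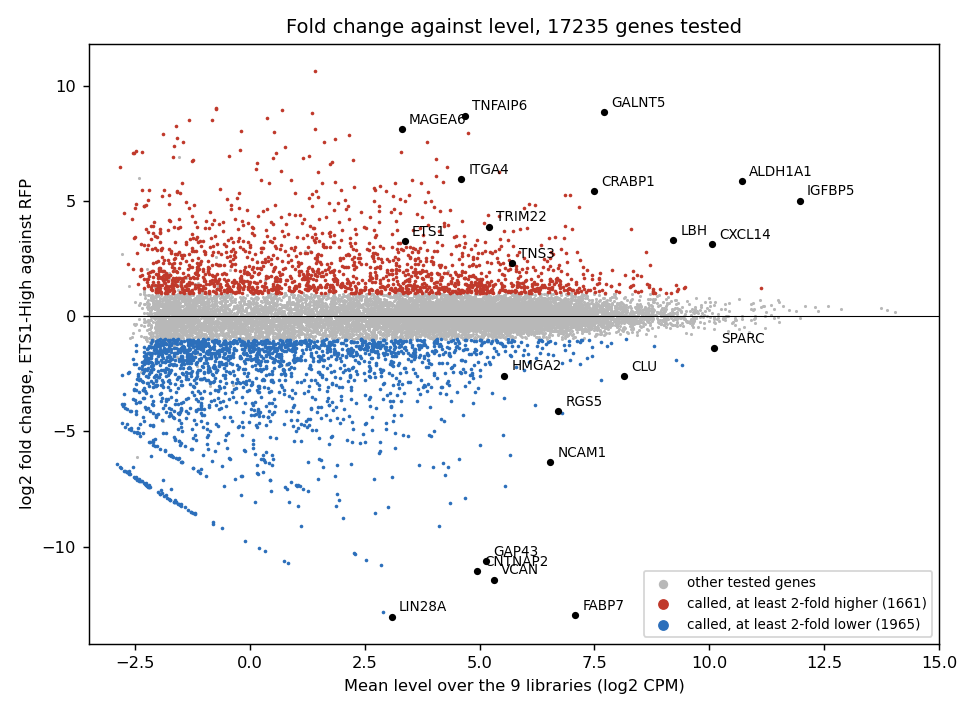
Each point is 1 of the 17235 genes tested; the x axis is the mean level over the 9 libraries (log2 CPM) and the y axis is the log2 fold change of ETS1-High against RFP. The 1661 genes called at least 2-fold higher are red, the 1965 called at least 2-fold lower are blue, and black points are named genes, with ALDH1A1 and IGFBP5 far right among the rises and FABP7 and LIN28A lowest. Folds of genes with almost no counts in a group depend on the prior count of the fit and form the slanted rows at the lower left.

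The labels were checked on the introduced gene. ETS1 stood at 0.53, 0.56 and 0.68 FPKM in RFP replicates 1 to 3 and at 5.34, 5.01 and 5.35 FPKM in ETS1-High. The lowest ETS1-High library was far above the highest RFP library, and the log2 fold change was 3.26 (SE 0.085; adjusted p = 4.4e-36, edgeR). Reads of the vector copy and of the endogenous gene cannot be separated in these counts. The partners of the fusion were also higher: FLI1 was at 20.3, 19.9 and 19.8 FPKM in RFP and 26.3, 26.1 and 26.5 FPKM in ETS1-High (log2 fold change 0.45, SE 0.034). EWSR1 ran from 151.3 to 157.1 FPKM in RFP and from 183.8 to 195.4 FPKM in ETS1-High (log2 fold change 0.34, SE 0.029). Counts of either gene hold reads of the fusion and of the normal allele together. The median log2 fold change of genes within 10 Mb was 0.13 for FLI1 and 0.18 for EWSR1. Over their whole chromosomes, 11 and 22, the medians were 0.33 and 0.24. The part of the chromosomes in these rises was not tested.

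TNS3 was at 3.21, 3.50 and 3.63 FPKM in RFP and at 17.3, 16.1 and 15.2 FPKM in ETS1-High, with no overlap. Its log2 fold change was 2.31 (SE 0.044; adjusted p = 1.75e-33, edgeR). The 250 bases before its RefSeq start (GRCh38.p14, chr7:47582587-47582836, minus strand) are shown because TNS3 is followed here beside ETS1; capitals mark the only match to GGAAGT, a core letter string of ETS binding, on either strand.
TNS3: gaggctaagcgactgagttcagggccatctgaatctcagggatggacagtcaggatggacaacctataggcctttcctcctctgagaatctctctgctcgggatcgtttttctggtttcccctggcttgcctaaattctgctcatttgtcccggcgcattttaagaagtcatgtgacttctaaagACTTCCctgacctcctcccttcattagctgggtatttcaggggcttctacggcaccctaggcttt

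Such a match is common. In windows from 250 bases before to 50 after the start, GGAAGT stood on either strand in 26.7% of 11152 tested protein-coding genes with a RefSeq window. It stood in 24.6% of the 1000 called at least 2-fold higher, 15.1% of the 1135 called at least 2-fold lower and 26.6% of the 2196 not called. The longer string CCGGAAGT stood in 8.39%, 2.8%, 1.23% and 8.56% of the same groups. Strings of the ETS core were not more frequent before genes that rose than before all genes, and the longer one was less frequent in both changed groups. These shares are a description of letters in these windows, without a test. The groups were not matched for level, and changes of at least 2-fold were commoner in genes of low level.

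The largest rises by fold were in genes nearly silent in RFP. GALNT5, a glycosyltransferase that starts O-linked chains, was at 0.12, 0.11 and 0.09 FPKM in RFP and 50.7, 47.6 and 48.7 FPKM in ETS1-High (log2 fold change 8.86, SE 0.062). TNFAIP6, a hyaluronan-binding protein of inflamed matrix, went from 0.13, 0.04 and 0.09 FPKM to 30.2, 29.6 and 30.1 FPKM (8.70, SE 0.115). SRGN, the proteoglycan of secretory granules, went from at most 0.24 FPKM to at least 35.8 FPKM (7.96, SE 0.115). MAGEA6, a cancer-testis antigen, went from at most 0.11 FPKM to at least 18.5 FPKM (8.12, SE 0.143). All of these were off or almost off in every RFP library and well expressed in every ETS1-High library. MAGEA6 has near-identical copies, so the division of its reads among them is uncertain. ISL1, a homeobox factor of motor neurons and heart progenitors, rose by 7.85 (SE 0.228) and reached between 3.71 and 3.90 FPKM. RFP counts were 5, 2 and 5 for TNFAIP6, 3, 11 and 7 for SRGN, 3, 4 and 8 for MAGEA6 and 4, 0 and 1 for ISL1. The SE of these folds can therefore be too small.

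Where RFP held at most 3 counts per library, folds are ratios of summed counts with 95% intervals that cover counting error only. PLPPR4, a neuronal membrane protein of the lipid phosphatase-related family, had 2 counts over the 3 RFP libraries and 971 over the ETS1-High libraries, a ratio of 541 (149 to 4476). HGF, the ligand of the MET receptor, had 3 and 868 counts, a ratio of 323 (110.0 to 1567). Their ETS1-High levels stayed between 1.55 and 2.45 FPKM.

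The largest gains in level were in secreted and cytosolic proteins. ALDH1A1, an aldehyde dehydrogenase that makes retinoic acid, was at 26.0, 25.7 and 25.7 FPKM in RFP and at 1361, 1386 and 1405 FPKM in ETS1-High (log2 fold change 5.85, SE 0.038; adjusted p = 2.87e-62, edgeR). CRABP1, which binds retinoic acid in the cytosol, went from 11.8, 13.1 and 14.2 FPKM to 508, 546 and 521 FPKM (5.43, SE 0.047). Both retinoid genes were thus among the leading changes, with replicates close together. IGFBP5, a secreted binding protein of insulin-like growth factors, went from 40.1, 40.9 and 42.1 FPKM to 1260, 1241 and 1199 FPKM (5.02, SE 0.036). IGFBP2, of the same family, started at 400 to 423 FPKM and reached 854 to 911 FPKM (1.18, SE 0.031). CXCL14, a chemokine, went from 116 to 130 FPKM to between 976 and 1021 FPKM (3.14, SE 0.034). LBH, a transcriptional cofactor of limb and heart development, went from at most 41.2 FPKM to at least 361 FPKM (3.29, SE 0.033). ANXA1, a calcium-dependent phospholipid-binding protein, and LGALS1, galectin 1, were already abundant and gained 1.22 (SE 0.030) and 1.38 (SE 0.030) on the log2 scale, ANXA1 to between 2119 and 2212 FPKM.

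The largest falls by fold left genes with few or no counts in ETS1-High. FABP7, the fatty-acid-binding protein of neural progenitors and glia, was at 491, 492 and 486 FPKM in RFP and 0.03, 0.08 and 0.05 FPKM in ETS1-High. That is 57554 counts against 6, a ratio of 8604 (3953 to 23450). VCAN, the matrix proteoglycan versican, fell from 16504 counts to 5, a ratio of 2961 (1268 to 9120). CNTNAP2, a neuronal adhesion protein of the neurexin family, fell from 12790 counts to 5, a ratio of 2294 (983 to 7068). GAP43, a growth cone protein, was at 70.4 to 73.9 FPKM in RFP and at most 0.06 FPKM in ETS1-High (log2 fold change -10.63). Its ETS1-High libraries held 3, 1 and 4 counts, so the size of this fold is imprecise. All of them were near 0 in all 3 ETS1-High libraries.

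LIN28A, an RNA-binding protein of embryonic cells that blocks let-7 maturation, had 3420 counts over RFP and 0 in ETS1-High. Against a floor of 3 counts per library this was at least 339.5-fold lower. By the same floor PDLIM1, a PDZ and LIM domain protein of actin stress fibres, was at least 73.0-fold lower. CBLN2, a secreted synapse organiser, was at least 68.4-fold lower and CADM3, a neural adhesion molecule, at least 64.8-fold lower.

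Abundant genes fell too. SPARC, a collagen-binding matrix protein, was at 1217, 1286 and 1335 FPKM in RFP and at 471, 506 and 451 FPKM in ETS1-High (log2 fold change -1.38, SE 0.030). CLU, the secreted chaperone clusterin, went from 794 to 825 FPKM to between 113 and 122 FPKM (-2.61, SE 0.031). RGS5, a regulator of G protein signalling known from pericytes, went from 174 to 181 FPKM to between 8.48 and 10.6 FPKM (-4.13, SE 0.038). TUBB2B, a tubulin of migrating neurons, went from 236 to 243 FPKM to between 32.2 and 34.7 FPKM (-2.74, SE 0.033). TMSB4X, an actin-monomer-binding peptide, fell by 1.72 on the log2 scale (SE 0.032) and CKB, the brain form of creatine kinase, fell by 1.13 (SE 0.030).

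**Figure D2:**
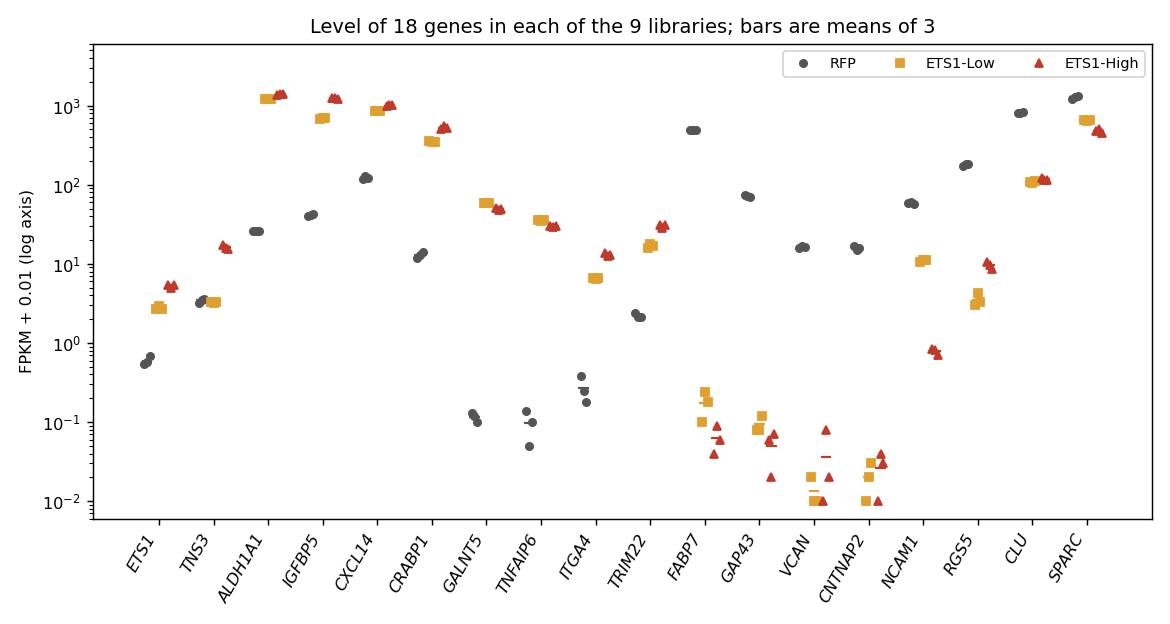
Points are FPKM + 0.01 in each library on a log axis for 18 named genes, with RFP in grey, ETS1-Low in yellow and ETS1-High in red; short bars are means of 3 libraries. ALDH1A1 lies near 26 FPKM in RFP and above 1360 FPKM in ETS1-High, and FABP7 lies near 490 FPKM in RFP and at or below 0.08 FPKM in ETS1-High. TNS3 is high in ETS1-High alone among the 3 groups.

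By gene class, 11096 of 13900 protein-coding genes were called, 5647 higher and 5449 lower. Among long noncoding RNAs, 482 of 2012 were called higher and 594 lower, with a median log2 fold change of -0.11. FENDRR, a long noncoding RNA of the mesenchymal FOXF1 locus, went from at most 0.03 FPKM to between 3.67 and 4.47 FPKM (log2 fold change 7.69, SE 0.229). DIRC3 went from 1.31 to 1.63 FPKM to between 36.8 and 39.2 FPKM (4.87, SE 0.051). MEG3, the imprinted RNA of the DLK1 locus, went from 2.89 to 3.56 FPKM to between 0.12 and 0.24 FPKM (-4.61, SE 0.153). Large changes were commoner in genes of low level, with 41.1% of the 3485 genes under 1 CPM called at least 2-fold changed. Among the 2127 genes over 100 CPM the share was 6.68%, and 106 of those rose and 36 fell at least 2-fold.

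Interferon response genes were mostly higher, against a background of 37.0%. They are induced through JAK-STAT signalling in antiviral defence. Of 58 listed and tested, 52 rose and 5 fell, and 38 rose at least 2-fold while none fell that much. The median log2 fold change was 2.05, against -0.01 for all genes tested, and it was between 1.04 and 2.05 over the scalings tried, which were TMM, DESeq2 and upper-quartile factors and filtered FPKM. With at least 10 counts required in every library the median was 1.25, and with unfiltered FPKM it was 0.83. The list's summed level went from 548 to 565 FPKM in RFP to between 1086 and 1120 FPKM in ETS1-High.

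TRIM22, an antiviral ubiquitin ligase, was at 2.35, 2.13 and 2.14 FPKM in RFP and at 31.3, 28.4 and 31.3 FPKM in ETS1-High (log2 fold change 3.89, SE 0.052; adjusted p = 6.63e-49, edgeR). PARP14, an ADP-ribosyltransferase, went from at most 2.22 FPKM to at least 11.2 FPKM (2.68, SE 0.041). The next genes were chosen after their values were seen. IFIH1, the RNA sensor MDA5, had the largest rise of the list, from 0.107 ± 0.021 to 6.35 ± 0.29 FPKM (SD, n = 3; log2 fold change 5.94). IFITM3, which blocks viral entry, went from 75.4 ± 5.1 to 253.5 ± 12.2 FPKM (1.85) and was the most abundant riser of those printed here. BST2, the virion tether tetherin, went from 1.93 ± 0.18 to 29.7 ± 0.54 FPKM (4.03). The signalling factors rose less, with STAT2 at 0.82 and IRF9 at 0.77 on the log2 scale, while the factor IRF1 rose by 2.26. IRF7 was not called (log2 fold change -0.23, SE 0.156). Not all members followed: IFIT1 fell by 0.82 (SE 0.128) and IFI16, a DNA sensor, fell by 0.38 (SE 0.031).

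Windows before the start of interferon genes often hold the letters GAAANNGAAA, a string of the interferon-stimulated response element. It stood on either strand in 30 of 46 listed genes with a window (65.2%), in 20 of the 30 that rose at least 2-fold (66.7%) and in 2.94% of all 11152 protein-coding windows. It stood in 72 of the 1000 genes called at least 2-fold higher (7.2%) and in 3.26% of those called at least 2-fold lower. The 72 include the 20 listed interferon genes, so the 7.2% is not independent of the list. The listed genes are known for this element, so the first shares describe the list. The 250 bases before the start are shown for the risers with a match that were highest in ETS1-High, with the match in capitals (GRCh38.p14; IFITM3 chr11:320861-321110, minus strand; IFITM1 chr11:313790-314039, plus strand; BST2 chr19:17405631-17405880, minus strand; TRIM5 chr11:5685075-5685324, minus strand).
IFITM3: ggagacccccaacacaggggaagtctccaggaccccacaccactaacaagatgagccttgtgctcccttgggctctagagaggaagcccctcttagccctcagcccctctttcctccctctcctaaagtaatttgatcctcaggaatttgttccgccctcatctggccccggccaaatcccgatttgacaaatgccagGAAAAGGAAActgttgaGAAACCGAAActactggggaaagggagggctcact
IFITM1: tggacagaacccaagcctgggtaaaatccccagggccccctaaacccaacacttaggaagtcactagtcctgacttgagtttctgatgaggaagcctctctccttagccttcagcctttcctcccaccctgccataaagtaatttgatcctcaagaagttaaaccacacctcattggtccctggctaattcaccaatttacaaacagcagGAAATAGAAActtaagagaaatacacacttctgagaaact
BST2: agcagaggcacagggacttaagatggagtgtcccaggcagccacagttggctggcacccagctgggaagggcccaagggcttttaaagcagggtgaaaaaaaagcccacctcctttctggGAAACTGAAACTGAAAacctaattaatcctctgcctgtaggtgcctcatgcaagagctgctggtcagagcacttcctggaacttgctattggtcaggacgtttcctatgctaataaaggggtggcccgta
TRIM5: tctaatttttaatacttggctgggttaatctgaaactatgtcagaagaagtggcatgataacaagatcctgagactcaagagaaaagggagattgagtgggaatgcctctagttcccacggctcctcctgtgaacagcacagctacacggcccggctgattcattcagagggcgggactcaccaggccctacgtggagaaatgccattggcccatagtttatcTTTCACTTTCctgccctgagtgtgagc

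In IFITM3 2 separate matches lie close to the start, and in BST2 2 matches overlap. TRIM5 carries its match on the other strand. IFITM1, chosen after its values were seen like TRIM5, went from 20.5 ± 0.90 to 43.1 ± 1.3 FPKM (SD, n = 3; log2 fold change 1.19), and TRIM5, a restriction factor of retroviruses, from 10.1 ± 0.29 to 19.7 ± 0.96 FPKM (1.03).

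Genes that load peptides onto MHC class I rose with them. Of 21 tested, 18 rose and 2 fell, with a median of 1.15, and 12 rose at least 2-fold. Unlike that of the interferon list, the summed level changed little. It was between 4243 and 4407 FPKM in RFP and between 4476 and 4575 FPKM in ETS1-High. PSMB8, a subunit of the immunoproteasome, was at 6.98, 8.90 and 8.16 FPKM in RFP and at 52.7, 53.5 and 53.7 FPKM in ETS1-High (log2 fold change 2.82, SE 0.052). ERAP1, the aminopeptidase that trims peptides in the endoplasmic reticulum, went from at most 8.48 FPKM to at least 32.3 FPKM (2.17, SE 0.034). Chosen after their values were seen, PSMB9, the partner subunit of PSMB8, had the largest rise of the list, from 0.897 ± 0.215 to 23.1 ± 1.2 FPKM (SD, n = 3; log2 fold change 4.81), and NLRC5, the transactivator of class I genes, rose by 2.90. Of the heavy chains, also chosen after their values were seen, HLA-C rose by 0.71 and HLA-B by 0.50, and reads may be divided between these similar genes. The chaperones CANX and PDIA3 fell, by 0.31 (SE 0.033) and 0.20 (SE 0.029). By contrast the 34 constitutive proteasome subunits had 10 members higher and 17 lower, none by 2-fold.

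**Figure D3:**
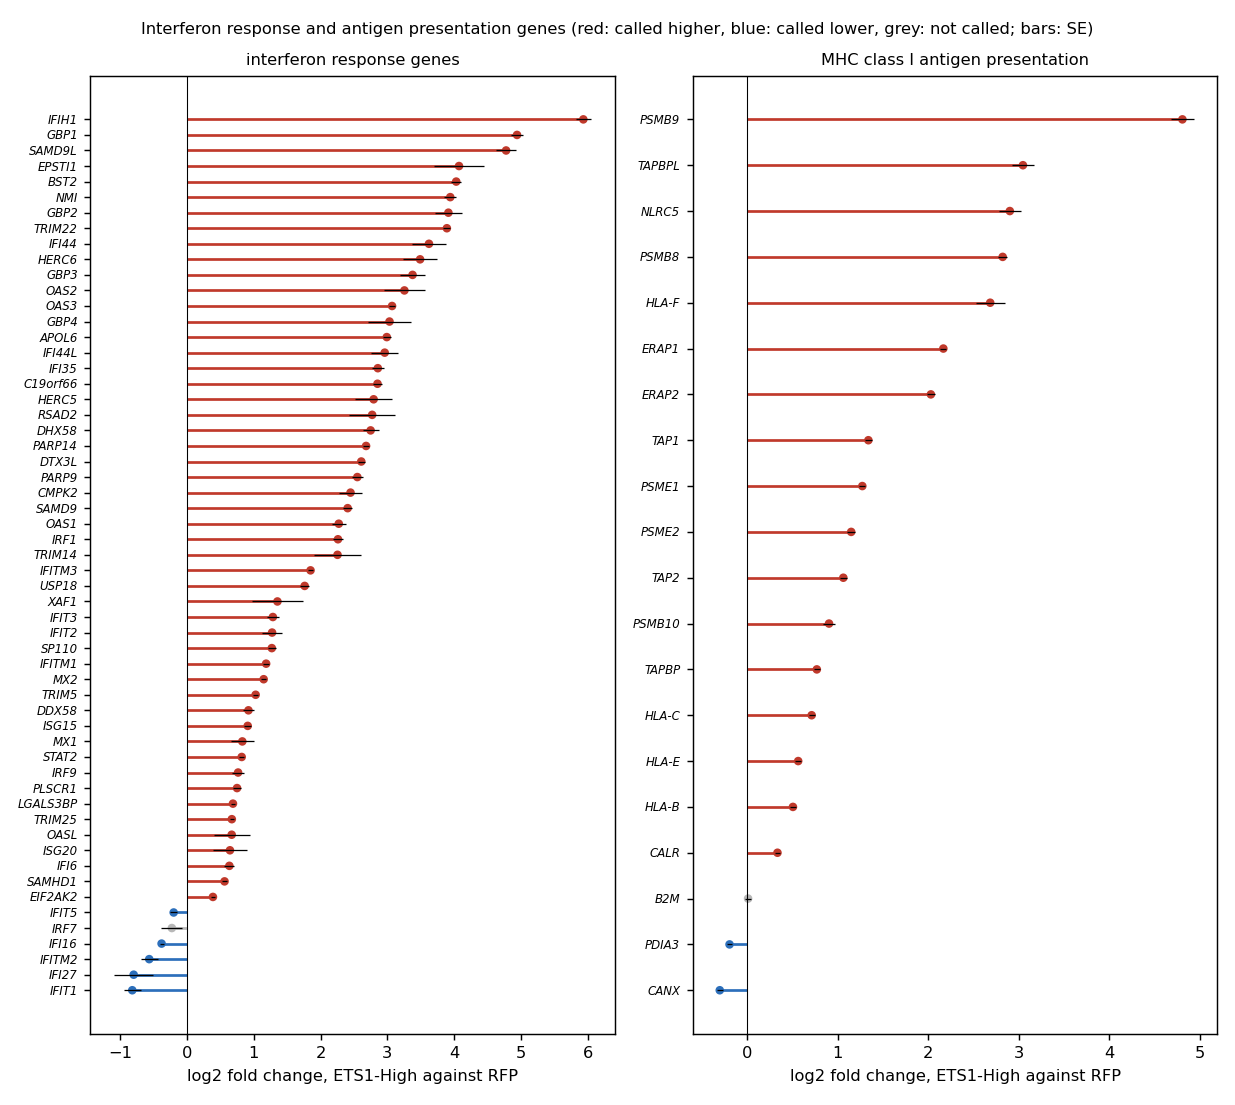
The log2 fold change of ETS1-High against RFP is on the x axis for the interferon response genes (left) and MHC class I presentation genes (right) that were plotted singly, 1 gene a row. Bars are the SE defined in the text. Red marks genes called higher, blue genes called lower, and grey genes not called. IFIH1 and PSMB9 head the panels at 5.94 and 4.81.

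Inflammatory signalling through NF-kappaB had 18 of 30 tested members higher and 5 lower (median 0.48; 0.19 to 0.48 over the scalings). The higher members were 11 with filtered FPKM, and the lower members were 3 without RFP replicate 2. TNFRSF1B, a receptor of tumour necrosis factor, went from at most 0.35 FPKM to at least 3.29 FPKM (log2 fold change 3.55, SE 0.108), and BCL3, a nuclear IkappaB protein, rose by 1.28 (SE 0.037). IL33, an alarmin, fell by 2.04 (SE 0.066) and NFKB2, the p100 precursor, by 0.84 (SE 0.051). Only 11 of 60 chemokines and chemokine receptors were tested, 6 higher and 4 lower, with a median of 1.63 (1.57 to 2.49 over the scalings). The median was 0.74 when only the 6 libraries of ETS1-High and RFP were fitted and -0.39 with no filter on low counts. Beside CXCL14, ACKR3, a scavenging receptor of CXCL12, went from 30.9 to 33.2 FPKM to between 85.8 and 94.3 FPKM (1.63, SE 0.033). CXCL12 itself went from 9.36, 9.70 and 9.96 FPKM to 0.78, 0.93 and 1.22 FPKM (-3.33, SE 0.087). So the scavenger rose and its ligand fell in the same cells.

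Cells of other types were looked for by their markers. Of 12 immune markers 2 were tested, CD14 and CD79A, and both fell. The 12 together summed to between 2.56 and 3.17 FPKM in RFP and between 1.29 and 2.03 FPKM in ETS1-High, and 6, including CD3D, CD3E, MS4A1, LYZ and NKG7, had at most 3 counts in every library. The interferon and MHC class I genes thus rose while the immune markers were near 0 in both groups. Of 8 endothelial markers 4 were tested, 2 higher and 1 lower. With upper-quartile factors 2 were lower, and with at least 10 counts required in every library 1 was higher. KDR, the receptor of vascular endothelial growth factor, fell from 7.92 to 8.72 FPKM to between 0.07 and 0.10 FPKM (log2 fold change -6.55, SE 0.099), and CLDN5 rose by 3.99 (SE 0.399) to between 0.72 and 0.98 FPKM. The endothelial markers summed to between 8.83 and 10.3 FPKM in RFP, most of it KDR, and 2.56 to 3.25 FPKM in ETS1-High. Of 10 epithelial markers 5 were tested, 3 higher and 0 lower. Epithelial markers summed to between 66.7 and 68.8 FPKM in RFP and 88.1 to 90.1 FPKM in ETS1-High, most of it KRT18, a keratin of simple epithelia, which rose by 0.46 (SE 0.033). Fibroblast and muscle markers summed to between 118 and 122.9 FPKM and 110.2 to 114.3 FPKM, with 4 of 8 tested higher and 3 lower. The part of these markers in the other results was not tested. Bulk libraries cannot tell fewer cells of a type from less RNA per cell.

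Markers of the Ewing sarcoma line itself were present in every library. All 10 were called higher with the TMM-normalised counts, with a median of 0.48, though the calls of NKX2-2 and NR0B1 were lost under other settings. The list summed to between 1040 and 1061 FPKM in RFP and between 1424 and 1435 FPKM in ETS1-High. CD99, the surface antigen used in diagnosis, was at 175, 169 and 172 FPKM in RFP and at 280.04, 291 and 284 FPKM in ETS1-High (log2 fold change 0.83, SE 0.030). LIPI, a membrane phospholipase, rose by 1.64 (SE 0.043) and STEAP1 by 0.51 (SE 0.037). NR0B1, a nuclear receptor that the fusion activates, ran from 211.8 to 225 FPKM in RFP and 219 to 228 FPKM in ETS1-High (0.14, SE 0.030). From FPKM values NR0B1 had 0.03 and was not called (limma, adjusted p from 0.424 to 0.518). NKX2-2, a homeobox target of the fusion, had a log2 fold change of 0.10 (SE 0.037) from TMM-normalised counts and of 0.00 from FPKM values. It was not called with upper-quartile factors (edgeR, adjusted p = 0.293), with DESeq2 (adjusted p = 0.0581), without RFP replicate 2 (edgeR, adjusted p = 0.0681) or without ETS1-High replicate 2 (edgeR, adjusted p = 0.232).

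Known targets of the fusion rose more often than they fell, both those it activates and those it represses. Of 42 genes known as activated by EWSR1::FLI1, 29 (69%) rose and 12 (28.6%) fell (median 0.43). Of 33 tested genes known as repressed by it, 22 (66.7%) rose and 10 (30.3%) fell (median 0.62). Of all genes tested 37.0% rose and 37.2% fell. Over the scalings the medians ran from 0.35 to 0.43 and from 0.56 to 0.87. Single members went both ways. Among the activated, FCGRT, the neonatal Fc receptor, went from 28.6 to 33.5 FPKM to between 159 and 165 FPKM (log2 fold change 2.43, SE 0.034), and IL1RAP, the interleukin 1 co-receptor, rose by 2.50 (SE 0.036). UPP1, a uridine phosphorylase, fell by 1.92 (SE 0.050) and NPY1R, a neuropeptide Y receptor, by 1.70 (SE 0.079). Among the repressed, IGFBP5 and LTBP1, a latent TGF-beta binding protein, rose, LTBP1 by 3.09 (SE 0.049) to between 13.6 and 15.2 FPKM. SPARC and NEDD9, a docking protein of focal adhesions, fell, NEDD9 by 2.20 (SE 0.053). The ETS family as a whole was at the background, with 9 of 21 tested members higher and 9 lower, ETS1 among the higher. ERF, a repressor of the family, rose by 0.54 (SE 0.032), while ETV3 fell by 0.52 (SE 0.033) and ELK4, a cofactor of serum response factor, by 0.38 (SE 0.032).

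Adhesion to the matrix and the contractile cytoskeleton leaned upward. In the focal adhesion plaque, to which tensin 3 belongs, 36 of 56 tested members rose and 18 fell (median 0.41; 0.21 to 0.41 over the scalings). KANK1, which sits at the rim of adhesions, was at 7.11, 7.06 and 7.28 FPKM in RFP and at 35.7, 35.6 and 35.3 FPKM in ETS1-High (log2 fold change 2.39, SE 0.035). FERMT1, kindlin 1, an activator of integrins, went from at most 0.61 FPKM to between 9.0 and 9.40 FPKM (4.13, SE 0.069). Of 41 actin contractile and YAP/TAZ target genes, 29 rose and 7 fell (median 0.38; 0.17 to 0.38 over the scalings). CYR61, a matricellular YAP target, went from 14.3, 15.4 and 15.2 FPKM to 107, 109 and 101 FPKM (2.92, SE 0.039), and ANKRD1, another YAP target, rose by 2.21 (SE 0.043). TAGLN2, an actin cross-linker, fell by 0.73 (SE 0.029) and the receptor kinase AXL by 0.95 (SE 0.064).

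Integrins moved both ways, with 11 of 20 tested subunits (55%) higher and 7 (35%) lower, beside 37.0% and 37.2% of all genes tested. ITGA4, the alpha 4 chain that binds VCAM1 and fibronectin, was at 0.37, 0.24 and 0.17 FPKM in RFP and at 13.8, 12.5 and 13.0 FPKM in ETS1-High (log2 fold change 5.95, SE 0.080). ITGA1, a collagen receptor chain, rose by 1.90 (SE 0.048). The laminin receptor chain ITGA7 went from 32.7 to 36.0 FPKM to between 5.04 and 6.03 FPKM (-2.53, SE 0.050). ITGA5, the fibronectin receptor chain, went from 41.9 to 44.7 FPKM to between 16.2 and 18.2 FPKM (-1.39, SE 0.032).

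Cadherins and nonclustered protocadherins had 13 of 24 tested higher and 9 lower (median 0.42). PCDH10 went from 4.26 to 4.82 FPKM to between 22.2 and 24.9 FPKM (2.55, SE 0.037), while PCDH19 fell by 1.90 (SE 0.039).

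Matrix genes moved both ways. Of 31 tested collagens 12 rose and 15 fell (median -0.49, and 0.06 at the highest over the scalings, so the list has no settled direction). The basement membrane chains COL4A2 fell by 3.55 (SE 0.047) and COL4A5 went from at least 12.2 FPKM to at most 0.08 FPKM (-9.12), while the fibrillar chains COL5A2 and COL3A1 rose by 1.88 (SE 0.036) and 1.35 (SE 0.032). COL3A1 went from 33.4 to 37.1 FPKM to between 81.9 and 88.2 FPKM. Matrix glycoproteins and proteoglycans had 31 of 70 higher and 31 lower, from TNFAIP6 and LTBP1 upward to VCAN and FBN2, fibrillin 2, downward (FBN2 -5.15, SE 0.099). Matrix proteases, their inhibitors and lysyl oxidases were lower as a list: 25 of 38 tested fell and 9 rose, with a median of -0.98, and of -0.20 at the weakest over the scalings. With at least 10 counts required in every library 14 fell and the median was -0.30. ADAMTS10 fell by 1.45 (SE 0.050) and the membrane protease MMP15 by 1.04 (SE 0.040). TIMP3, a protease inhibitor, went the other way, from at most 0.32 FPKM to at least 5.48 FPKM (4.49, SE 0.092), and LOXL1, a collagen cross-linking oxidase, rose by 1.53 (SE 0.036).

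The TGF-beta and BMP pathway had 33 of 56 tested members higher and 15 lower (median 0.34). The receptor TGFBR2 was at 1.41, 1.30 and 1.49 FPKM in RFP and at 13.3, 13.3 and 12.8 FPKM in ETS1-High (log2 fold change 3.33, SE 0.053). ATOH8, a BMP target gene, went from at most 0.32 FPKM to at least 15.6 FPKM (5.79, SE 0.095). The antagonist NOG, noggin, went from 6.66 to 7.38 FPKM to between 0.42 and 0.50 FPKM (-3.78, SE 0.121). The BMP receptor BMPR1A fell by 1.29 (SE 0.037).

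FGF signalling and the feedback genes of the ERK cascade leaned downward, with 20 of 35 tested lower and 9 higher (median -0.42). FGFR1 was at 108, 114 and 111 FPKM in RFP and at 28.2, 28.2 and 26.9 FPKM in ETS1-High (log2 fold change -1.82, SE 0.031). The ligand FGF19 went from 9.78 to 10.4 FPKM to between 0.63 and 0.80 FPKM (-3.68, SE 0.099). IER3, an immediate early gene, rose by 2.65 (SE 0.043) and CCND1, cyclin D1, by 0.69 (SE 0.030) to between 642 and 660.02 FPKM. In the Notch pathway 15 of 30 fell and 8 rose (median -0.20, and -0.11 at the weakest over the scalings). NOTCH3 fell by 0.88 (SE 0.034) and the feedback inhibitor NRARP by 1.51 (SE 0.088), while the target HEY1 rose by 1.68 (SE 0.052).

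Receptor tyrosine kinases and the IGF axis had 23 of 45 higher and 20 lower. Beside IGFBP5, IGFBP4 rose by 1.28 (SE 0.033), and IRS4, an insulin receptor substrate, fell from 2308 counts to 1, a ratio of 2070.0 (371 to 81800.0). The Wnt pathway was near the background, with 19 of 50 higher and 24 lower. Its receptor FZD4 was at 2.34, 2.17 and 2.36 FPKM in RFP and at 32.3, 31.3 and 31.8 FPKM in ETS1-High (log2 fold change 3.90, SE 0.038; adjusted p = 6.24e-55, edgeR). The secreted modulator SFRP2 went from at most 0.47 FPKM to at least 25.6 FPKM (6.10, SE 0.086). The receptors LGR5 and ROR2 fell, by 1.64 (SE 0.040) and 5.12 (SE 0.129).

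**Figure D4:**
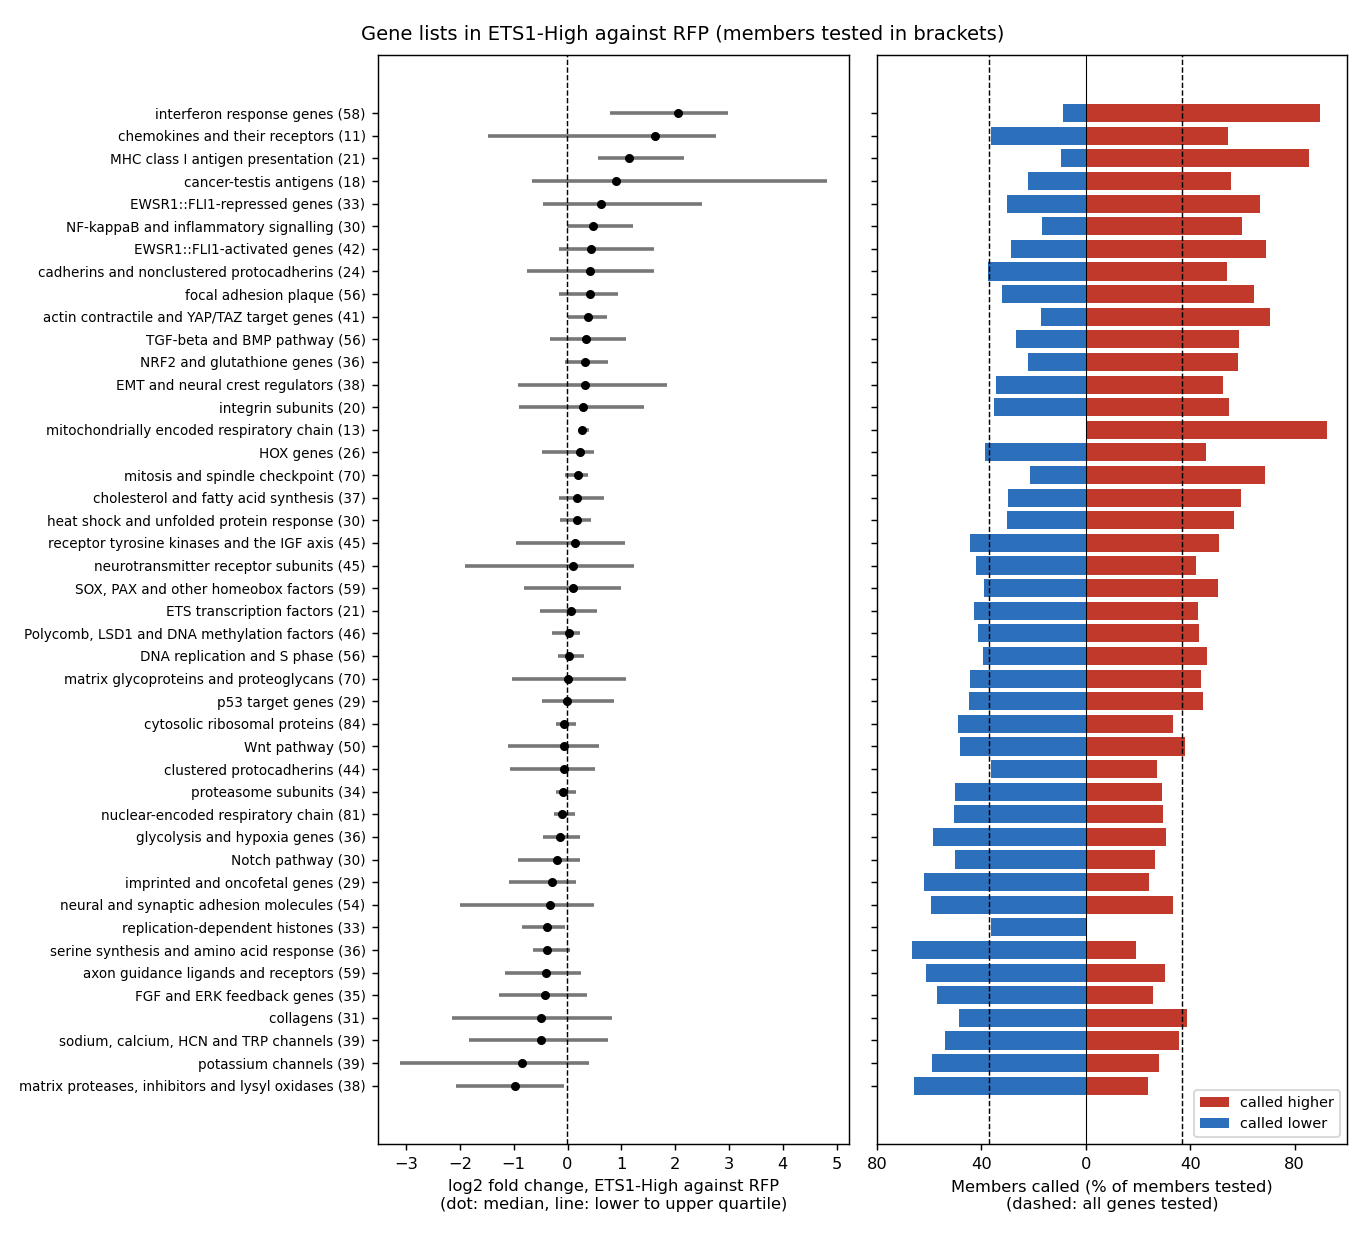
The 44 gene lists are ordered by their median log2 fold change of ETS1-High against RFP; the left panel shows medians (dots) and the range from the lower to the upper quartile of the members (lines), and the right panel the percent of tested members called higher (red) and lower (blue). Dashed lines are all genes tested, at a median of -0.01 with 37.0% higher and 37.2% lower. Interferon response genes lie at the top at 2.05 and matrix proteases at the bottom at -0.98.

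Neural genes fell more often than they rose in the lists of adhesion molecules, guidance molecules and potassium channels, in part through genes silent in ETS1-High. Over all genes tested, 309 were silent (at most 3 counts in each library) in ETS1-High only and 100 in RFP only. Such genes pass the count filter through another group. Of 54 tested neural and synaptic adhesion molecules 32 fell and 18 rose (median -0.32). With at least 10 counts required in every library 17 fell and the median was -0.11. NCAM1, the neural cell adhesion molecule, was at 59.4, 60.8 and 57.5 FPKM in RFP and at 0.82, 0.81 and 0.70 FPKM in ETS1-High (log2 fold change -6.33, SE 0.053; adjusted p = 1.5e-57, edgeR). FLRT2, an adhesion and guidance molecule, went the other way, from 6.35 to 7.06 FPKM to between 39.2 and 40.9 FPKM (2.69, SE 0.036). Of 59 axon guidance ligands and receptors 36 fell and 18 rose (median -0.40). The repellent SEMA3A went from 32.2 to 35.9 FPKM to between 2.26 and 2.64 FPKM (-3.85, SE 0.045) and the ephrin receptor EPHA2 fell by 1.65 (SE 0.036), while the netrin receptor UNC5B rose by 1.77 (SE 0.047).

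Potassium channels had 23 of 39 tested lower and 11 higher (median -0.85, but -0.08 at the weakest over the scalings). With at least 10 counts required in every library 11 were lower, with a median of -0.36. With filtered FPKM 6 were lower and 5 higher. KCNA2, a voltage-gated channel of axons, was at 31.1, 32.3 and 31.0 FPKM in RFP and at 1.70, 1.65 and 1.58 FPKM in ETS1-High (log2 fold change -4.20, SE 0.042). KCNE4, an accessory subunit, rose by 1.81 (SE 0.030) to between 170.2 and 178 FPKM, so that the summed level of the list was higher in ETS1-High (248 to 256 FPKM) than in RFP (184 to 188 FPKM) although most members fell. Sodium, calcium, HCN and TRP channels had 21 of 39 tested lower and 14 higher, a median of -0.50 that turned to 0.19 at the highest over the scalings. CACNG8, an accessory calcium channel subunit, went from 3.83 to 4.06 FPKM to at most 0.08 FPKM (-6.44, SE 0.126), while SCN2A, a sodium channel of axons, rose by 2.78 (SE 0.079). Neurotransmitter receptors were evenly split, 19 higher and 19 lower of 45. CHRNA9, a nicotinic receptor subunit, went from 41.7 to 48.6 FPKM to between 0.54 and 0.72 FPKM (-6.20, SE 0.084), and GRM2, a glutamate receptor, from 14.6 to 15.7 FPKM to between 58.9 and 63.2 FPKM (2.13, SE 0.033).

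Developmental regulators moved both ways, beside 37.0% higher and 37.2% lower of all genes tested. Among EMT and neural crest regulators 20 of 38 (52.6%) rose and 13 (34.2%) fell. HAND2, a factor of sympathetic neurons and heart, was at 21.6, 22.4 and 22.9 FPKM in RFP and at 105, 109 and 106 FPKM in ETS1-High (log2 fold change 2.36, SE 0.033), and TFAP2A, a neural crest factor, rose by 2.44 (SE 0.043). FOXD3, an early neural crest factor, fell by 1.91 (SE 0.065), and POU4F1, a factor of sensory neurons, by 1.06 (SE 0.043). The list labelled SOX, PAX and other homeobox factors also holds T-box and GATA factors, which are not homeobox genes, as SOX factors are not. Of its 59 tested members 30 (50.8%) rose and 23 (39%) fell. TBX3 rose by 2.21 (SE 0.034) and GATA2 by 2.74 (SE 0.047), whereas DLX5 went from 77.2 to 78.8 FPKM to between 14.95 and 16.6 FPKM (-2.20, SE 0.041). Of 26 HOX genes 12 (46.2%) rose and 10 (38.5%) fell, HOXD8 by 1.26 (SE 0.044) and HOXB8 by -3.32 (SE 0.088). The HOX median ran from -0.02 to 0.23 over the scalings, so the list has no settled direction. Imprinted and oncofetal genes leaned downward, with 18 of 29 lower and 7 higher. HMGA2, a chromatin protein repressed by let-7, went from 24.6 to 26.1 FPKM to between 3.77 and 4.03 FPKM (-2.58, SE 0.042), beside the loss of LIN28A.

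Cell cycle genes changed little in size. Of 70 mitotic genes 48 rose and 15 fell, none by 2-fold (median 0.20, 0.09 to 0.20 over the scalings), with CCNA2, cyclin A2, at 0.80 (SE 0.032), AURKA, aurora kinase A, at 0.73 (SE 0.030) and CENPH, a kinetochore protein, at -0.97 (SE 0.038). Of 56 replication genes 26 rose and 22 fell. TK1, thymidine kinase, went from 34.6 to 36.9 FPKM to between 92.5 and 94.8 FPKM (1.49, SE 0.032) and RRM2, a subunit of ribonucleotide reductase, rose by 1.35 (SE 0.030). CDKN1A, the p53 target p21, went from 1.76 to 2.34 FPKM to between 9.63 and 10.52 FPKM (2.49, SE 0.078), though the p53 targets as a list were evenly split, 13 higher and 13 lower of 29.

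Metabolic lists moved in different directions. Of 36 genes of serine synthesis and the amino acid response 24 fell and 7 rose (median -0.38). ASNS, asparagine synthetase, was at 84.9, 97.0 and 89.2 FPKM in RFP and at 23.2, 24.1 and 24.97 FPKM in ETS1-High (log2 fold change -1.81, SE 0.036), while the cystine transporter SLC7A11 rose by 1.16 (SE 0.034). Of 36 glycolysis and hypoxia genes 21 fell and 11 rose, the glucose transporter SLC2A3 by -2.05 (SE 0.044) and CA12, a carbonic anhydrase, by 1.61 (SE 0.059). Of 37 genes of cholesterol and fatty acid synthesis 22 rose and 11 fell (median 0.18, and 0.08 at the weakest over the scalings), with DHCR7, the last enzyme of cholesterol synthesis, at 1.17 (SE 0.037) and SCD5, a desaturase, at -1.18 (SE 0.039). NRF2 and glutathione genes had 21 of 36 higher and 8 lower, with GSTM4, a glutathione transferase, at 0.88 (SE 0.032) and AKR1C3, a ketosteroid reductase with close paralogs, at -3.00 (SE 0.070).

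Housekeeping machinery moved within narrow limits. Of 84 cytosolic ribosomal protein genes 28 rose and 41 fell, none by 2-fold, with a median of -0.06 and log2 fold changes from -0.73 to 0.56. Of 81 nuclear-encoded respiratory chain genes 24 rose and 41 fell, none by 2-fold (median -0.11), while 12 of the 13 mitochondrially encoded genes rose and none fell (median 0.27). The signs of these 3 medians were the same under the scalings tried, over which they ran from -0.16 to -0.06, from -0.21 to -0.11 and from 0.17 to 0.27. Without ETS1-High replicate 1 the median of the nuclear-encoded genes was -0.05. In heat shock and the unfolded protein response 17 of 30 rose and 9 fell. The small heat shock proteins led, with CRYAB from 75.5 to 84.6 FPKM to between 267 and 291 FPKM (log2 fold change 1.96, SE 0.036) and HSPB8 at 5.09 (SE 0.116), whereas HSP90AA1 fell by 0.68 (SE 0.031). Of 33 tested replication-dependent histone genes none rose and 12 fell (median -0.38). The lower share of 36.4% is at the background of 37.2%, and the median was -0.17 without ETS1-High replicate 3 and -0.49 without ETS1-High replicate 1. The mRNAs of these genes lack poly(A) tails and are poorly captured by mRNA kits. Polycomb and related chromatin factors were split, 20 higher and 19 lower of 46, with PHF19, a Polycomb accessory protein, at 2.10 (SE 0.034) and the demethylase KDM1A at -0.58 (SE 0.029). Cancer-testis antigens had 18 of 61 members tested, 10 higher and 4 lower. The lower members were 2 without RFP replicate 2 and 7 without ETS1-High replicate 1, and with at least 10 counts required in every library 2 were higher and 2 lower. MAGEA3 rose by 6.95 (SE 0.260) along with its near copy MAGEA6 while XAGE2 fell by 5.22 (SE 0.279).

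Fold changes also differed by chromosome. Among genes whose mean level was above a log2 CPM of 1, the median on chromosome 2 was 0.46, with 84.2% of 842 genes above 0. On chromosome 11 it was 0.33 (80.5% of 694 genes), on chromosome 19 it was 0.31 (78.4% of 922 genes), and on chromosomes 18 and 22 it was 0.24. On chromosome 5 the median was -0.36 with 24.4% of 565 genes above 0, on chromosome 8 it was -0.26 and on chromosome 10 -0.21. Copy number was not measured in these libraries, and its part in these medians was not tested. The median log2 fold change of the neighbours within 10 Mb was, at the median of the members, 0.02 for the interferon genes and -0.07 for the MHC class I genes. Single interferon genes differed. The neighbour median was 0.31 for TRIM22 on chromosome 11 and 0.02 for PARP14, which rose. It was -0.13 for IFI16 and -0.47 for IFIT1, which fell. The part of the neighbourhoods in these changes was not tested. On chromosome 2 the neighbour median was 1.13 for GALNT5, 1.01 for TNFAIP6, 0.58 for IGFBP5 and IGFBP2, and 0.35 for LBH. The clustered protocadherins, which stand together on chromosome 5, had a neighbour median of -0.38 beside their own median of -0.06, with 12 of 44 higher and 16 lower. That median had no settled direction: it ran from -0.12 to 0.07 over the scalings and was -0.23 without ETS1-High replicate 2. The higher members were 7 with DESeq2. With at least 10 counts required in every library 5 were higher and 6 lower, and with filtered FPKM 1 was higher and 0 lower.

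**Figure D5:**
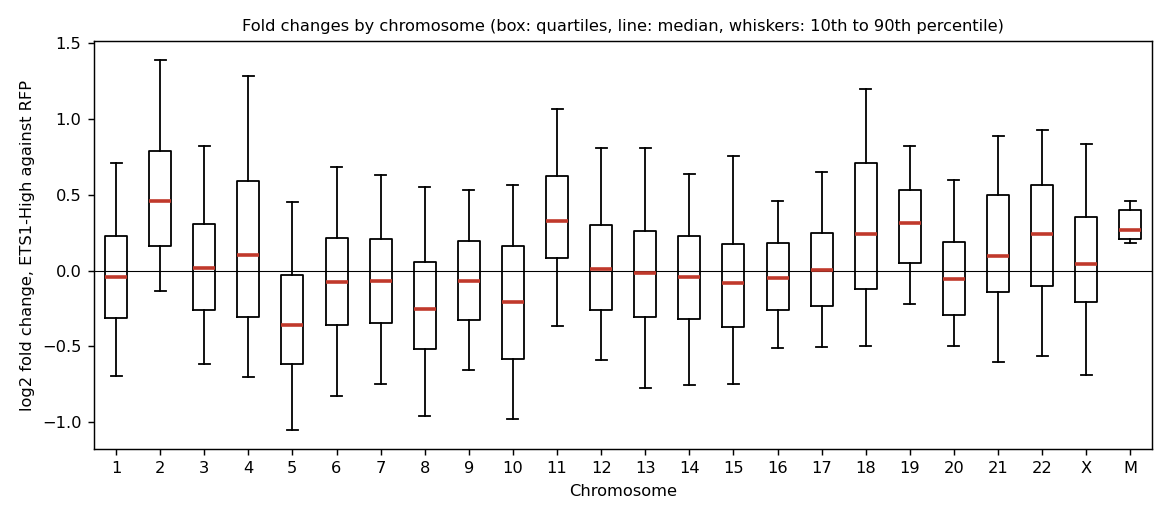
Boxes span the quartiles of the log2 fold changes of ETS1-High against RFP on each chromosome, for genes with a mean log2 CPM above 1; red lines are medians and whiskers run from the 10th to the 90th percentile. Chromosomes 2, 11 and 19 lie above 0 with medians of 0.46, 0.33 and 0.31, and chromosome 5 lies below with -0.36.

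ETS1-High was set against ETS1-Low directly in the same fit, since both share the RFP control and their folds against it are not independent. Of the genes tested, 10196 (59.2%) were called in that comparison, 5153 (29.9%) higher and 5043 (29.3%) lower in ETS1-High. ETS1 stood at 2.69, 2.94 and 2.7 FPKM in ETS1-Low, between RFP and ETS1-High (ETS1-High against ETS1-Low 0.85 on the log2 scale, SE 0.067; adjusted p = 8.11e-16, edgeR). TNS3 stood at 3.30, 3.18 and 3.25 FPKM in ETS1-Low, within the RFP range of 3.21 to 3.63 FPKM or just under it, and the difference between the ETS1 groups was 2.30. SFRP2 was at 0.22 to 0.31 FPKM in ETS1-Low, and ETS1-High was 6.62 above it on the log2 scale. LTBP1 was at 1.35 to 1.59 FPKM in ETS1-Low (difference 3.34) and ANKRD1 at 3.47 to 3.78 FPKM (difference 3.41). These genes were at or under their RFP level in ETS1-Low and several-fold higher in ETS1-High. PDLIM1 was at 12.7 to 13.1 FPKM in ETS1-Low, above RFP, and had 0 counts in ETS1-High.

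Other leading genes were near each other in both ETS1 groups. GALNT5 was at 58.4 to 59.5 FPKM in ETS1-Low, slightly above ETS1-High (difference -0.27), and ALDH1A1 at 1194 to 1222 FPKM (difference 0.16). CLU, at 106 to 110.01 FPKM, was not called between the ETS1 groups (difference 0.06, adjusted p = 0.103, edgeR), nor was GAP43 at 0.07 to 0.11 FPKM (difference -1.03, adjusted p = 0.122, edgeR). Of the 58 interferon genes, 38 were called above their ETS1-Low level in ETS1-High and 9 below, against 29.9% and 29.3% of all genes tested, with a median difference of 0.30. Of the 44 clustered protocadherins 37 were called above their ETS1-Low level and none below, with a median difference of 1.71.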

How the data were processed

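RSEM expected counts for each gene and RSEM FPKM values were deposited by the authors in separate tables, per the file headers. FPKM as deposited is scaled for gene length and library total. The submitters' processing notes name the build GRCh38 and the tools cutadapt 4.4, STAR 2.7.3, featureCounts, Subread 2.0.3 and limma 3.38.3 without their roles. The RSEM version, the annotation and the strand setting are not given in the sources used here, so values of genes that overlap others are uncertain. Columns were matched to samples by name and 0 were left without a sample. Since 9.27% to 10.3% of values in a library were fractional, counts were rounded.

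The counts of all 9 libraries were tested in a single fit by group with edgeR 4.0.16 in R 4.3.3 (TMM, filterByExpr, robust quasi-likelihood), with Benjamini-Hochberg adjustment over 17235 genes. The script was tested on simulated data. Replicates differed by more than sampling noise (a chi-square per gene of 3.25 to 5.19, where noise gives about 1) and were counted separately. Genes with at most 3 counts in each library of a group have ratios or bounds, which cover counting error only.

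The members, the 49 lists (29 of symbols and 20 by name pattern, 5 of the 49 for cell types) and the tests were chosen with earlier results of these data known, so no list is independent evidence of its direction. Named genes were, by rule, ETS1, TNS3, FLI1 and EWSR1, the 8 largest changes in each direction by fold and by FPKM, the 3 largest among long noncoding RNAs, up to 2 per list and direction with the smallest p, and the cell type markers. Some results that the rules selected are not reported or plotted singly here. Biotypes and positions are from GENCODE v44 by identifier (17094 genes, 99.2%), and promoter windows from RefSeq. Alternatives were other scalings and filters, DESeq2 1.42.0, limma 3.58.1 on log2(FPKM + 1 or 0.1), the replicate number as a block, and leaving out each library.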

Additional observations from a re-analysis of the deposited data

Results flagged for a closer look

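Groups of 3 libraries are too small for a check of single outlying samples. Of the 40 genes reported for the largest changes or as genes of the study, 31 had a difference between the ETS1 groups in the direct test (edgeR, adjusted p under 0.05), where 59.2% of all genes tested did, so that their changes against RFP were of different size in the ETS1 groups. All differences are ETS1-High minus ETS1-Low on the log2 scale. Among the study's genes they were 0.85 for ETS1, 2.30 for TNS3 and 0.22 for FLI1. Among the largest rises by fold they were 5.38 for PLPPR4, 2.32 for HGF, 6.92 for MAGEA6 and 0.82 for ISL1, but -0.27 for GALNT5, -0.26 for TNFAIP6 and -0.27 for SRGN. Among the largest gains in level they were 0.16 for ALDH1A1, 0.81 for IGFBP5, 0.12 for ANXA1, 0.20 for CXCL14, 0.17 for LGALS1, 0.54 for CRABP1, 0.59 for IGFBP2 and 0.53 for LBH.

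Among the falls they were -1.74 for FABP7, -12.54 for PDLIM1, -0.43 for SPARC, 1.19 for TMSB4X, -0.36 for CKB, -0.90 for TUBB2B, -1.27 for KIAA1456 and 1.28 for RGS5. The fitted values of FABP7 and PDLIM1 rest on a group with almost no counts and depend on the prior count. Among long noncoding RNAs they were 2.41 for FENDRR, 0.30 for DIRC3, -3.19 for RP11-33H15.1, -1.88 for the gene ENSG00000231023.6 and -2.19 for MEG3. Of the 185 genes named from the lists, 162 differed between the ETS1 groups by the same test, beside the same 59.2% of all genes tested. Apart from the genes of the study, both sets of genes were chosen for their changes against RFP.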

How the results depend on the processing

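The count of called genes stayed within 1.5 times of 12785 under every alternative run, and between 12392 and 12591 when each library was left out in turn. ETS1 and TNS3 stayed called and higher throughout. Requiring at least 10 counts in every library, which removes genes silent in a group, gave 1089 genes at least 2-fold higher and 946 lower. FPKM values with a pseudocount of 1 and a mean of at least 1 gave 3965 genes higher, 638 at least 2-fold higher and 603 at least 2-fold lower. With a pseudocount of 0.1 these were 3957, 853 and 861, and without a filter the 2-fold counts were 684 and 726. Of the called genes 49.8% were higher in the reported fit, 41.3% with filtered FPKM and 38.1% with unfiltered FPKM; the cause was not tested. With FPKM, NKX2-2 had 0.00 and NDUFS1 -0.11 in place of 0.10 and 0.41. The medians of 7 lists changed sign among the scalings, collagens, HOX genes and replication genes among them. Of the named genes' values under the alternatives, 15 kept their sign and lost the call, 4 gained a call and 6 turned sign, which were 3 of NKX2-2, also no longer called, and 3 of NDUFS1. Same-numbered libraries did not deviate together (r of 0.023, -0.019 and 0.002), and with the replicate number as a block 12701 genes were called, 12659 of them shared with the reported fit. Low levels limit the precision: genes under a few counts carry wide counting intervals.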
